A study of Mus musculus with 10 samples.

Results

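Glutathione S-transferases are enzymes that join the tripeptide glutathione to reactive or toxic molecules, which can then be exported from the cell. The cytosolic enzymes fall into classes named by Greek letters (alpha, mu, pi, theta and others), and the kappa enzyme lies in mitochondria and peroxisomes. The liver is rich in them, and many of their genes are known to be induced by the transcription factor NRF2 and by the nuclear receptors CAR and PXR.

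The family was followed through 10 genes: Gsta2, Gsta3 and Gsta4 of the alpha class, Gstm1, Gstm2, Gstm3 and Gstm4 of the mu class, Gstt1 and Gstt2 of the theta class, and Gstk1 of the kappa class. A gene was read by the probe set that carries its symbol alone, or, where it had several, by the one with the highest mean over all arrays. All 10 were found among the 18193 genes with such a probe set, and all 10 were among the 11062 genes that passed the filter on low values and were tested. The probe sets of the 10 genes lay between the 90.1 and the 99.8 percentile of all probe sets' means.

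Livers came from female mice of 2 inbred strains, C57BL/6J (called B6 here) and DBA/2J (called D2). Both strains ate food rich in fat and cholesterol, and livers were collected after 0, 1, 4, 12 and 21 weeks of it, week 0 being the group without the diet. Each combination of strain and week was 1 RNA pool from 5 mice on 1 Affymetrix Mouse Genome 430 2.0 array. There were thus 10 arrays, 5 per strain, of which 4 per strain were from fed mice. Pooling hides the spread between mice, no later weeks without the diet are analysed here, and ages are not given in the sources used here. Values below are log2 normalised signals, differences are on the same log2(signal + pseudocount) scale, and the weeks stand in for replicates. In the strain comparison week was a block, so its error holds how far the strain difference varied between weeks. In the comparisons with week 0 the error includes time on the diet. A gene was called where its p-value in limma, adjusted by the Benjamini-Hochberg method over all 11062 genes, was below 0.05. The number of arrays limits the precision.

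The summed signal of 11 hepatocyte markers ranged from 57200 to 62300 over the arrays, and none was at 0 in any array. Most of these markers lie near the top of the normalised scale, where the normalisation leaves little room to vary. The lowest of them lay between 5.83 and 7.59. Another was at 10.71 in D2 at week 21, against 11.55 to 12.40 in the other arrays, which the sum does not show. Macrophage and stellate cell markers differed more between arrays. The summed signal of 16 macrophage markers was 3220, 6130, 16800, 3190 and 9200 in B6 at weeks 0, 1, 4, 12 and 21, against 3310 to 4820 in D2. Of 14 that were tested, 1 was called lower in D2 and 1 higher, with a median difference of −0.69. For 11 stellate cell markers the range was 2460 to 4580 in B6 and 1920 to 2450 in D2, and 3 of 10 tested were called lower in D2. Endothelial markers (8 genes) summed to between 1130 and 1460, and 1 of the 8 was called lower in D2. Markers of bile duct cells, lymphocytes and pancreas stayed at or below 77.4, 204 and 579 in every array. Of 3 pancreas markers tested, 1 was called higher in D2. None was called of the 1 bile duct and 3 lymphocyte markers tested. Of all genes tested, 4.08% were called lower in D2 and 3.91% higher. In B6 at week 21, the pancreas markers too low to be tested were at 5.86 and 5.06. In the other arrays they were at most at 2.91 and 1.67. In bulk tissue, fewer cells of a type and less RNA per cell cannot be told apart.

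Over all weeks, 3 of the 10 genes were lower in D2 than in B6, and none was called higher. These were the alpha class gene Gsta2, lower by a factor of 3.61, and the mu class genes Gstm3 (2.61) and Gstm1 (1.26). The strains were nearest to each other in Gsta2 and Gstm3 before the diet, and D2 was below B6 at every later week. The call of Gsta2 held in 12 of 13 other ways of analysis and in 6 of 10 fits with 1 array left out. Gstm3 and Gstm1 stood just under the threshold. They were called in 6 and 3 of the 13 ways, and in 2 and 0 of the 10 fits. Of all genes tested, 7.98% were called in this comparison, 4.08% lower in D2 and 3.91% higher. The median difference of the 10 genes was −0.24, against 0.01 for all genes tested, and 8 of the 10 were negative, against 47.8% of all genes.

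Gsta2, an alpha class enzyme known for its activity towards organic hydroperoxides, was at 9.64 in B6 before the diet, and at 11.15, 11.10, 10.46 and 10.70 after 1, 4, 12 and 21 weeks. In D2 it was at 9.25 before the diet and at 8.58, 8.32, 7.99 and 9.65 at the same weeks. Each fed B6 array thus lay above the B6 array of week 0, and 3 of 4 fed D2 arrays lay below that of D2. Among the fed arrays the strains did not overlap, which held for 15.8% of all genes tested, 7.75% with D2 below. With week 0 included they overlapped, since D2 at week 21 just exceeded B6 at week 0. None of the 10 genes separated all 5 arrays of the strains, as 8.3% of all genes did, 4.13% with D2 below and 4.17% with D2 above. On the authors' own scale the signal went from 629 to 2490 between weeks 0 and 1 in B6, and from 467 to 354 in D2.

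The strain difference of Gsta2 was −0.39 before the diet and −2.57, −2.78, −2.47 and −1.04 at the later weeks. Its mean was −1.85 ± 0.34 (SE, 5 arrays per strain, limma adjusted p = 0.0165), with D2 lower at 5 of 5 weeks, as for 11.2% of all genes tested. Without either array of week 1 the adjusted p was up to 0.0563, and without either array of week 12 up to 0.0694, so the call was lost there. Leaving out 1 array of a pair takes both arrays of that week out of this comparison. Over the fed weeks alone the difference was −2.22.

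A further probe set reads Gsta2 together with the alpha class genes Gsta1 and Gm3776 and was therefore not used to represent Gsta2. It was at 9.14, 11.81, 11.56, 10.21 and 10.43 in B6 and at 8.80, 8.68, 8.13, 7.97 and 9.21 in D2. Its strain difference was −2.07 ± 0.38 (SE, adjusted p = 0.0167 in limma over all probe sets), in the same direction as that of the Gsta2 probe set. Transcripts of these near copies can bind the same probes, and their parts in this signal cannot be told apart. The DNA just before the start sites of Gsta1 and Gsta2 is printed for the likeness of the genes that the shared probe set reads. Both sequences come from RefSeq on build GRCm38.p6, read 5′ to 3′ along the gene, and capitals mark their longest shared run of 29 bases. Bases inside the annotated span of the gene are left out, so the Gsta2 stretch stops 47 bases short of the start site of its window. Over 197 aligned bases they were 74.1% identical, against 55.6% between Gsta2 and Gsta3 and 43.1% between Gsta2 and Gstm3.
Gsta1, chr9:78230419-78230668, plus strand: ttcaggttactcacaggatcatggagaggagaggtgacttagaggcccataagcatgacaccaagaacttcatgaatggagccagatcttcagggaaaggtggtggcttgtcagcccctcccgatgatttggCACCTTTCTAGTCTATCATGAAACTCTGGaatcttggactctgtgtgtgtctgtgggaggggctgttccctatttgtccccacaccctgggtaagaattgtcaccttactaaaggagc
Gsta2, chr9:78347193-78347395, minus strand: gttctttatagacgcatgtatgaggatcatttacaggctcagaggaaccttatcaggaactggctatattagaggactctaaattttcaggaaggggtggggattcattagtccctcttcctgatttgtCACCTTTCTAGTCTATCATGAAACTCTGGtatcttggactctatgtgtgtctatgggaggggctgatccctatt

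**Figure D1:**
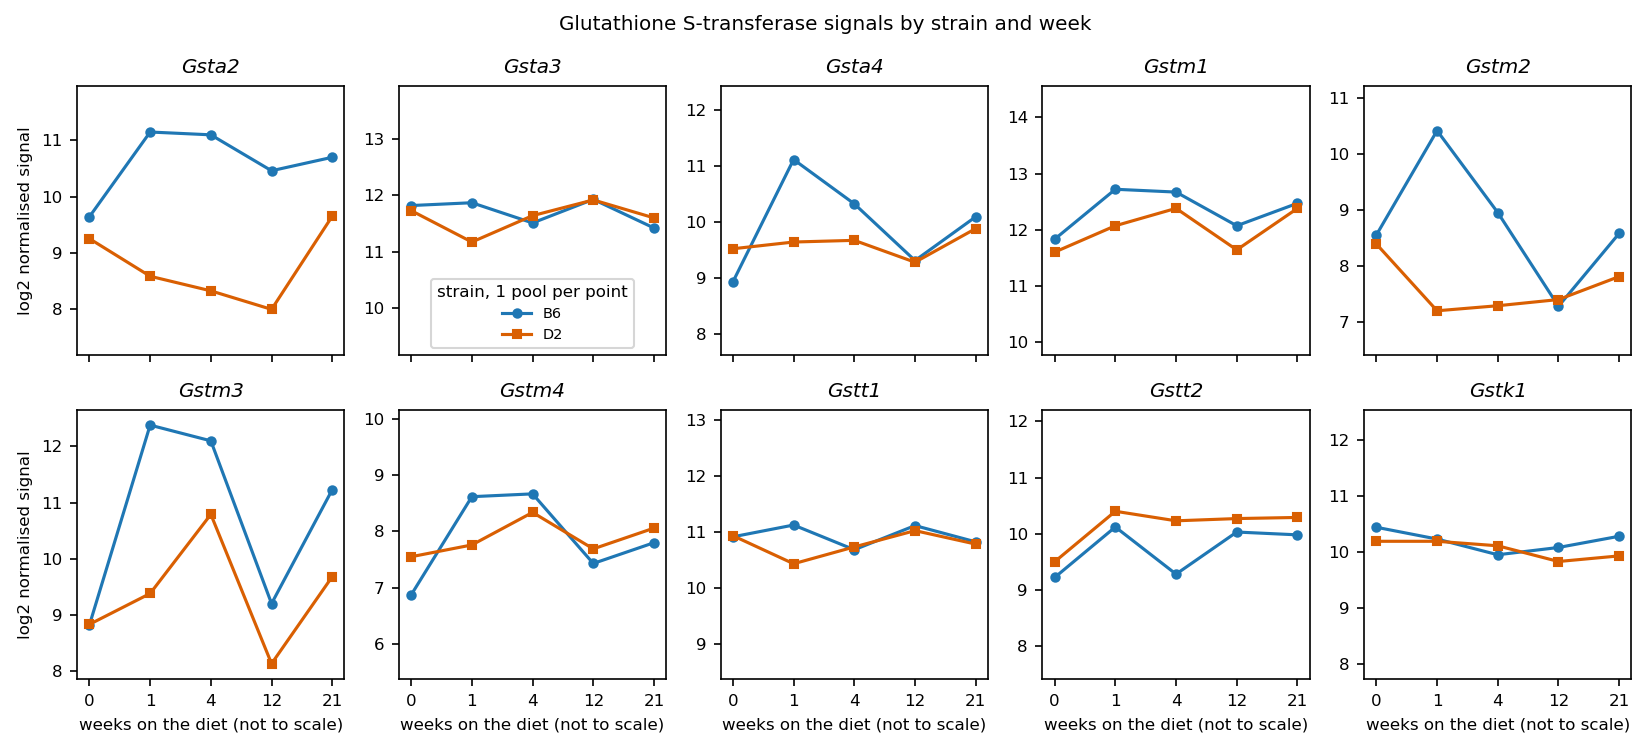
Log2 normalised signal (vertical axis, every panel spanning the same number of log2 units) of the 10 glutathione S-transferase genes against weeks on the diet (horizontal axis, spaced evenly and not to scale). Circles are B6 and squares D2, each point is 1 array of a pool of 5 mice, and lines only join the weeks. Gsta2 lies between 10.46 and 11.15 in fed B6 and between 7.99 and 9.65 in fed D2, Gstm3 reaches 12.38 in B6 and 10.79 in D2, and Gsta3, Gstt1 and Gstk1 stay nearly level.

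Neither of the other alpha class genes was called. Gsta4, known for conjugating 4-hydroxynonenal, a product of lipid peroxidation, was at 8.93, 11.11, 10.32, 9.31 and 10.09 in B6 over the 5 weeks. In D2 it stayed between 9.28 and 9.88. The B6 values at weeks 1, 4 and 21 were above the whole D2 range and that of week 0 was below it. Its mean strain difference of −0.35 did not pass (95% interval from −0.93 to 0.23, adjusted p = 0.436), with single weeks from −1.47 at week 1 to 0.60 at week 0. It was −0.07 without either array of week 1 and −0.59 without either array of week 0, and was called in neither case.

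Gsta3, an alpha class gene that is strongly expressed in mouse liver, lay between 11.42 and 11.93 in B6 and between 11.17 and 11.92 in D2. The groups overlapped, and the strain difference was −0.10 (95% interval from −0.39 to 0.18, adjusted p = 0.662). The mean of the probe set used was at the 99.5 percentile, near the top of the scale. Another Gsta3 probe set lay between 9.06 and 10.33, with a strain difference of −0.24 ± 0.17 (SE, limma adjusted p = 0.593 over all probe sets). The 250 bases before the start sites of the members in the RefSeq table (8 of the 10 genes, 10 windows) were searched on both strands for 4 motifs. TGACNNNGC, the core of the antioxidant response element that NRF2 binds, was in 1 of the 10 member windows, that of Gsta3, and in 10.2% of all 32851 windows. TGACTCA (the AP-1 site, which can overlap the first motif) was in none of the member windows and in 4.46% of all, and TTACGTAA (the D-box of the PAR bZIP factors) in none and in 0.113%. AGGTCA, a nuclear receptor half-site, was in that of Gstk1 and in 14% of all. The Gsta3 stretch is shown since it holds the single NRF2 core found, in capitals, which begins 121 bases before the start site of the window. The printed stretch stops 20 bases short of that site, where the annotated gene begins. The sequence of Gstm3 is shown as that of the gene whose signal varied most, and its window held none of the 4 motifs. Elements further away are not covered by these windows.
Gsta3, GRCm38.p6, chr1:21240335-21240564, plus strand: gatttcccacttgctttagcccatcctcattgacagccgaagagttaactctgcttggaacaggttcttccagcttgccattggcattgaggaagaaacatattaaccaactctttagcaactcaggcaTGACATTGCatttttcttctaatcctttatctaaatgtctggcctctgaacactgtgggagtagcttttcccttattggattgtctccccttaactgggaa
Gstm3, GRCm38.p6, chr3:107969175-107969424, minus strand: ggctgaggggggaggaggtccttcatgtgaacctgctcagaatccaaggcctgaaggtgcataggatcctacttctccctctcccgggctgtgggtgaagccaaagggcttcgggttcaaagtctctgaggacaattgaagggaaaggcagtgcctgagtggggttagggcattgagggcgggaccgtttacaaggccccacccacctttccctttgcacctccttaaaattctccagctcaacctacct

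The mu class genes form a row on chromosome 3, in the order Gstm5, Gstm7, Gstm6, Gstm3, Gstm2, Gstm1 and Gstm4, with no other protein-coding gene between them in RefSeq. Of the 4 that are members, Gstm3 had the widest range of all 10 genes, 4.26 on the log2 scale. In B6 it was at 8.82 before the diet and at 12.38, 12.10, 9.20 and 11.23 at weeks 1, 4, 12 and 21. In D2 it was at 8.83 and then at 9.38, 10.79, 8.13 and 9.68. The strains were thus level before the diet, and B6 was the higher strain at each of the 4 fed weeks. In both strains week 12 was the lowest of the fed weeks. On the authors' own scale the B6 signal was 341 at week 0 and 5580 at week 1, and that of D2 was 348 and 607.

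The strain difference of Gstm3 was 0.01 at week 0 and −3.00, −1.30, −1.08 and −1.55 at the fed weeks, with a mean of −1.38 ± 0.35 (SE, limma adjusted p = 0.0493). The fed arrays of the strains overlapped, B6 at week 12 lying below D2 at weeks 1, 4 and 21. Without either array of week 1, 4, 12 or 21 the call was lost, with adjusted p up to 0.143, whereas it was kept without either array of week 0 (−1.73, adjusted p up to 0.0215). Without week 1 the difference was −0.98. Another Gstm3 probe set had a difference of −1.82 ± 0.49 (adjusted p = 0.0926 over all probe sets), with B6 at 6.99 before the diet and 11.96 at week 1. The name of the probe set used, ending in _s_at, marks one whose probes can bind more than 1 transcript.

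Gstm1, an abundant mu class enzyme of the liver, was at 11.83, 12.72, 12.67, 12.07 and 12.47 in B6 and at 11.60, 12.07, 12.38, 11.64 and 12.38 in D2. The strains overlapped, and D2 was lower at 5 of 5 weeks by between −0.65 and −0.08. The mean difference was −0.34 ± 0.08 (SE, adjusted p = 0.0493), and the call was lost whichever of the 10 arrays was left out, with adjusted p from 0.0573 to 0.143. It was also lost without week as a block, with adjusted p = 0.385. The 3 further Gstm1 probe sets had differences of −0.48, −0.73 and −1.05, of which the first passed (limma adjusted p = 0.0439 over all probe sets). The first was lower in D2 at every week. In those with −0.73 and −1.05, D2 was above B6 at week 0, at 7.12 against 6.84 and at 9.51 against 9.45. The probe set used is an _x_at set, whose probes can bind other transcripts, and its mean was at the 99.8 percentile, near the top of the scale.

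Gstm2 and Gstm4 were not called between the strains. Gstm2, a mu class gene, was at 8.55, 10.41, 8.95, 7.28 and 8.58 in B6 and at 8.39, 7.20, 7.29, 7.40 and 7.81 in D2. The B6 array of week 1 was the highest, and at week 12 the strains were level. The difference was −1.14 ± 0.43 (SE, adjusted p = 0.154), from −3.21 at week 1 to 0.12 at week 12. Without either array of week 1 it was as small as −0.62. Gstm4 was at 6.87, 8.62, 8.67, 7.43 and 7.80 in B6 and between 7.55 and 8.34 in D2. Its mean difference was 0.00 (95% interval from −0.47 to 0.48), made of 0.68 at week 0, −0.86 at week 1 and smaller values later.

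No theta or kappa class gene was called. The ranges of Gstt1 and Gstk1 over the 10 arrays were 0.69 and 0.61 on the log2 scale, and that of Gstt2 was 1.19. Gstt2, a theta class gene, was higher in D2 at 5 of 5 weeks, as 11.7% of all genes were, and the difference of 0.41 ± 0.12 (SE) did not pass (adjusted p = 0.0685). It was at 9.22, 10.12, 9.28, 10.03 and 9.98 in B6 and at 9.50, 10.40, 10.23, 10.27 and 10.29 in D2, so the fed arrays of the strains did not overlap, with D2 above, as for 8.04% of all genes. Gstt1, which also handles small halogenated molecules, lay between 10.68 and 11.12 in B6 and between 10.43 and 11.02 in D2, with a difference of −0.15 (95% interval from −0.41 to 0.11). Gstk1, the mitochondrial and peroxisomal enzyme, lay between 9.95 and 10.44 in B6 and between 9.83 and 10.19 in D2, with a difference of −0.15 (95% interval from −0.36 to 0.06). Neither passed, with adjusted p = 0.457 and 0.374.

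**Figure D2:**
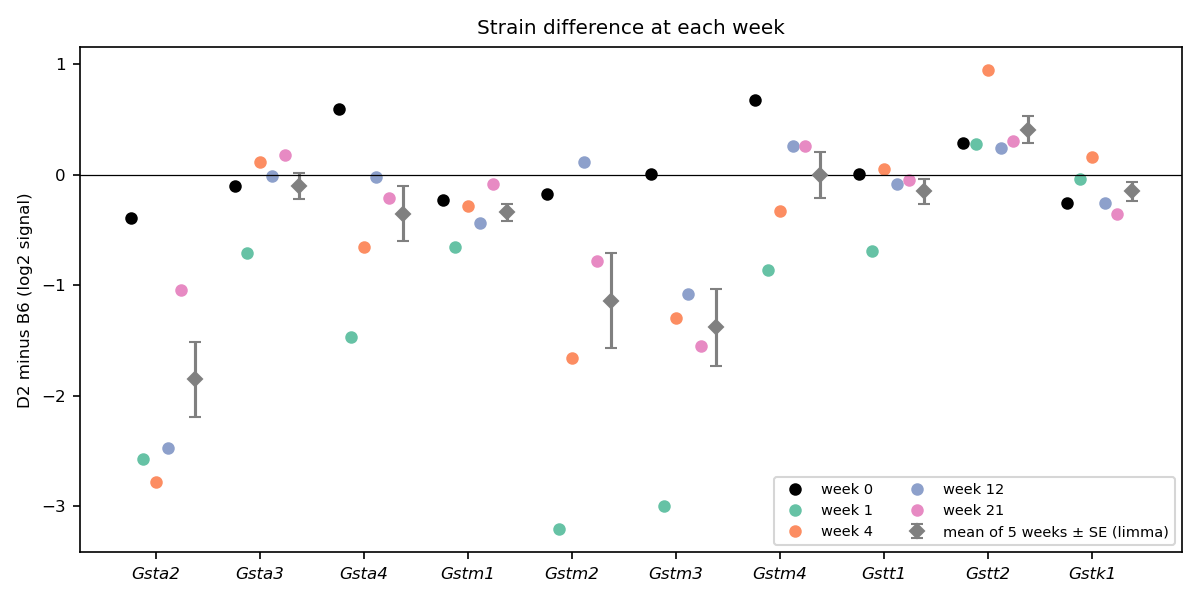
Difference of D2 minus B6 in log2 signal (vertical axis) for each of the 10 genes (horizontal axis), 1 dot per week, with a grey diamond for the mean of the 5 weeks and bars for its SE in limma. Gsta2 runs from −2.78 to −0.39 and Gstm3 from −3.00 to 0.01, with week 0 nearest to 0 in both, while Gstt2 is above 0 at every week.

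Set against week 0, none of the 10 genes passed as changed on the diet in the fit over both strains, where 0.633% of all genes were called (0 of 10 in limma). At an unadjusted p under 0.05 there were 3 of 10, against 17.4% of all genes. The median change of the 10 was 0.44, against 0.01 for all genes. The smallest adjusted p was that of Gstt2, whose change was 0.72 ± 0.18 (SE, adjusted p = 0.0908), and which lay above week 0 in all 4 fed arrays of both strains. Gstm1, by the probe set used, and Gstm4 also lay above week 0 in all 8 fed arrays, as 11.1% of all genes tested did. Their changes were 0.58 ± 0.20 (adjusted p = 0.18) and 0.83 ± 0.33 (adjusted p = 0.225). In D2, another Gstm1 probe set was at 7.12 at week 0 and at 7.05 and 5.78 at weeks 1 and 12. A further one was at 9.51 at week 0 and 8.96 at week 12 in D2. The remaining one lay above week 0 in all fed arrays. The change of Gstm3 was 1.54 ± 0.80 (adjusted p = 0.347). Without the week 0 array of B6 the changes of Gstm3 and Gstm4 were 0.66 and 0.41, which are those within D2. Without that of D2 they were 2.41 and 1.26, which are those within B6, and none was called. Such a fit takes its change only from the strain that keeps its week 0 array. Without the B6 array of week 4 the change of Gstt2 was 0.81 and was called (adjusted p = 0.00736). Without both arrays of week 12, an alternative chosen after seeing the data, that of Gstm1 was 0.73 and was called (adjusted p = 0.0227).

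The scale between the arrays matters for changes from week 0, because both week 0 arrays were the dimmest. At the authors' own scale the median of all genes moved by 0.52, and 4990 genes, 45.1% of those tested, were called. On that scale 5 of the 10 genes rose (adjusted p from 0.00305 to 0.0493): Gstt2 (1.17), Gstm1 (0.84), Gstm4 (1.36), Gsta4 (1.13) and Gstm3 (1.97), of which 0.52 is the shift of all genes.

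Within B6, the 4 fed arrays had mean changes from week 0 of 2.41 ± 1.13 (SE) for Gstm3, 1.28 ± 0.50 for Gsta4, 1.26 ± 0.45 for Gstm4 and 1.21 ± 0.51 for Gsta2. None of the 10 genes was called there (adjusted p from 0.315 to 0.981), and 0.118% of all genes were. At an unadjusted p under 0.05 there were 4 of 10, against 12.6% of all genes. At the authors' own scale 5 of the 10 were called in B6 (Gsta2, Gsta4, Gstm1, Gstm4 and Gstt2), along with 17.6% of all genes. For Gsta2, Gsta4, Gstm1, Gstm3, Gstm4 and Gstt2, all 4 fed B6 arrays lay above week 0, as for 26.7% of all genes. Within D2 the largest change in size was −0.96 ± 0.83 for Gstm2, which lay below week 0 in all 4 fed arrays. The share of all genes that did so was not counted. Gstm1, Gstm4 and Gstt2 lay above week 0 in all 4 fed D2 arrays, as 27.3% of all genes did, and the change of Gstt2 was 0.79 ± 0.27 (adjusted p = 0.308). None of the 10 was called in D2 either, again beside 0.118% of all genes. At an unadjusted p under 0.05 there was 1 of 10, near the 11.5% of all genes. For Gstm1, further probe sets lay below week 0 in some fed D2 arrays, as given above. Each change from week 0 rests on a single week 0 array per strain.

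Whether the strains responded differently was tested as the difference of these changes. It was −1.82 ± 0.72 (SE) for Gsta2, with a 95% interval from −3.43 to −0.22 and an unadjusted p of 0.03 that did not survive the adjustment (limma adjusted p = 0.764). It was the 1 of 10 at an unadjusted p under 0.05, where 6.08% of all genes were. For Gstm3 it was −1.74 (95% interval from −5.34 to 1.85), for Gstm2 −1.22 (from −3.86 to 1.42) and for Gsta4 −1.18 (from −2.77 to 0.40). None of the 10 genes passed, and 0.00904% of all genes did. The intervals of these 4 genes are wide, with 1 week 0 array per strain. In slopes on log2(week) over the fed arrays, 0 of 10 genes were called overall and 0 of 10 differed between the strains, in limma, with 0% of all genes called in either. At an unadjusted p under 0.05 these counts were 0 and 1, against 4.72% and 7.01% of all genes, so neither stands out from the background. The 1 gene was Gstm2, whose slope differed by 0.67 ± 0.21 (SE, adjusted p = 0.669), with D2 at 7.20 at week 1 and 7.81 at week 21, and B6 at 10.41 and 8.58.

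**Figure D3:**
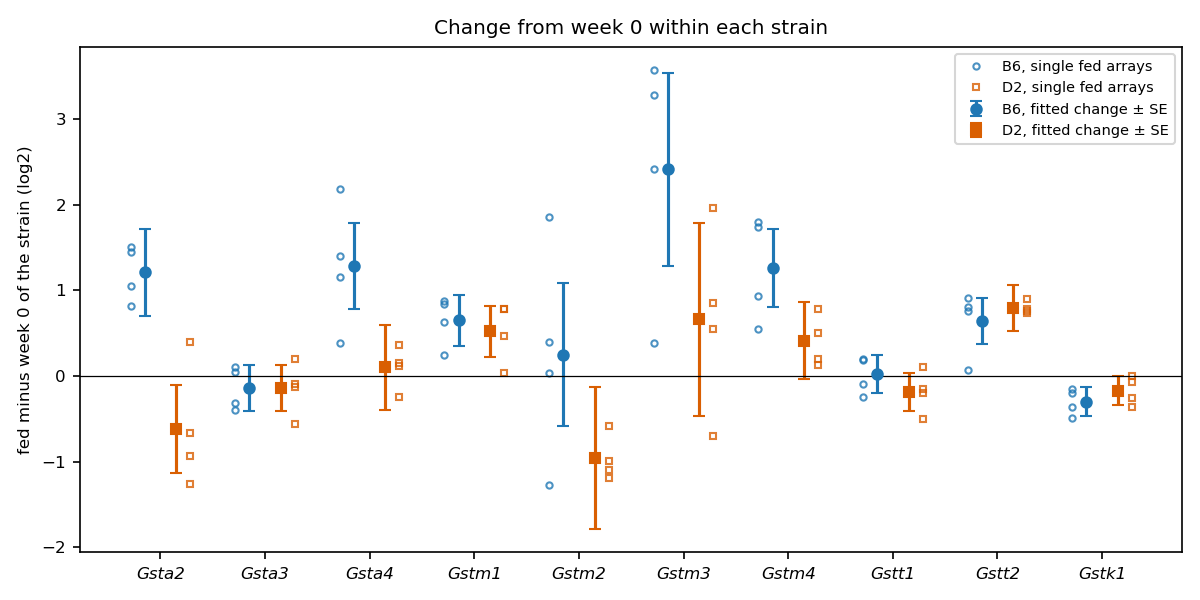
Change of the log2 signal from the week 0 array of the same strain (vertical axis) for the 10 genes (horizontal axis). Small open symbols are the 4 single fed arrays, filled symbols the fitted change with its SE, circles B6 and squares D2. The B6 arrays of Gsta2 lie from 0.82 to 1.51 above week 0 and the D2 arrays from −1.26 to 0.40, and all 8 fed arrays of Gstt2 lie above 0.

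Over the 10 arrays, several of the genes went up and down together. The Pearson correlation of log2 signals was 0.93 for Gstm1 and Gstm3, 0.88 for Gsta4 and Gstm3, 0.84 for Gsta4 and Gstm4, and 0.81 for Gstm3 and Gstm4. With the strain means taken out, these were 0.92, 0.89, 0.88 and 0.93. A separate pair was Gsta3 and Gstt1, at 0.92 and, without the strain means, 0.93. These are descriptions over 10 arrays that share strain and week, and mu class probe sets may share targets. In the macrophage marker list, the B6 arrays of weeks 4, 21 and 1 had the highest sums, and within B6 the same 3 arrays were the highest for Gsta2, Gsta4, Gstm1, Gstm2, Gstm3 and Gstm4. In D2 the week 4 array had the highest Gstm3 signal and the lowest macrophage sum. The part of these cells in the signals was not tested.

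Among the 11061 other genes tested, Gstm1 and Fnbp1l were each in the likest 3 of Gstm3, with Pearson's r = 0.935 and 0.951 over 10 arrays. The likest genes of Gsta2 were Ccdc32 (0.956), Clns1a (0.953) and Ly96 (0.952), and those of Gsta4 were Pold1 (0.993), Mad2l1 (0.946) and Prom1 (0.933). For Gstm1 they were Ugt2b35 (0.959), Ccdc50 (0.959) and Fnbp1l (0.951). The likest 3 of Gsta3 included Gstt1, and those of Gstt1 included Gsta3 (0.923). They were picked from many genes over few arrays, so these values are a description only.

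**Figure D4:**
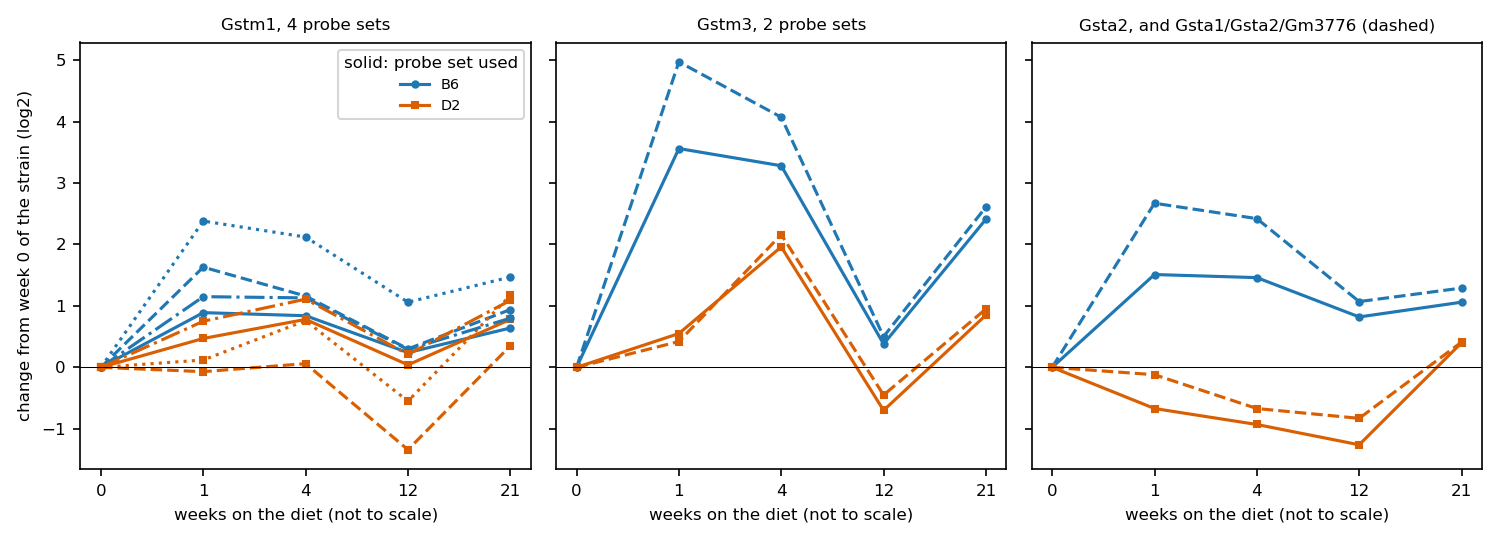
Change of the log2 signal from the week 0 array of the same strain (vertical axis) against weeks on the diet (horizontal axis, not to scale) for every probe set of Gstm1, of Gstm3 and of Gsta2, the last with the probe set shared with Gsta1 and Gm3776. Solid lines are the probe sets used, other line styles the further ones, circles B6 and squares D2. Both Gstm3 probe sets are highest at week 1 in B6 and at week 4 in D2, and the 2 probe sets that read Gsta2 lie above 0 in all fed B6 arrays.

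Beside the counts in this list and those below, 4.08% of all genes tested were called lower in D2 and 3.91% higher. On the diet 0.633% of all genes were called, and 0.118% within D2. Of 22 other glutathione transferase genes listed, 18 had a probe set and 11 were tested. Between the strains 1 was lower in D2, Gsto1 of the omega class (−0.54 ± 0.10, adjusted p = 0.0196), and 1 higher, the microsomal Mgst3 (0.98 ± 0.20, adjusted p = 0.0266). The median difference of the list was −0.08, and none of it was called on the diet, in either strain or in the difference between them. Gstp1, a pi class gene, was at 11.89, 12.52, 12.48, 12.04 and 12.11 in B6 and at 11.95, 12.37, 12.34, 11.61 and 12.30 in D2 (strain difference −0.10, limma adjusted p = 0.553). Gstm6, the mu class neighbour of Gstm3, differed by −0.82 ± 0.26 (adjusted p = 0.1).

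Of 17 tested genes of glutathione synthesis and turnover, 2 were higher in D2 and 0 lower (median −0.01). These were Cbs, an enzyme of the transsulfuration pathway to cysteine (0.42 ± 0.09, adjusted p = 0.0245), and the amino acid transporter chain gene Slc3a2 (0.36 ± 0.09, adjusted p = 0.0441). On the diet 1 of the 17 fell, Ggct, an enzyme of the gamma-glutamyl cycle (−0.97 ± 0.15, adjusted p = 0.0186). Of 13 glutathione peroxidases and thiol enzymes, Gpx3, the secreted peroxidase, was lower in D2 (−1.50 ± 0.19, adjusted p = 0.00295) and Glo1, the methylglyoxal-detoxifying glyoxalase that is duplicated in DBA/2J, higher (0.80 ± 0.12), with 0 called on the diet and a median of −0.05 between the strains.

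Of 20 other NRF2 targets, 2 were lower in D2 and 0 higher, the export pumps Abcc2 (−0.79 ± 0.08, adjusted p = 0.00095) and Abcc4 (−1.03 ± 0.22, adjusted p = 0.0278), with a median of −0.22. None of these 20 was called on the diet. Of 14 CAR and PXR targets, 4 were lower in D2 and 1 higher (median −0.28). The higher one was Sult3a1 (6.67 ± 0.95, adjusted p = 0.00524). Lower were Cyp3a13 (−1.95 ± 0.12, adjusted p = 0.000109) and Cyp2b10, the standard CAR target (−1.20 ± 0.16, adjusted p = 0.00396). Also lower were Aldh1a7 (−0.70 ± 0.17, adjusted p = 0.0478) and Papss2 (−0.44 ± 0.10, adjusted p = 0.0321). Cyp2b10 also fell on the diet (−2.76 ± 0.51, adjusted p = 0.0428), the only 1 of the 14 called there. Of 17 regulators, Ahr was lower in D2 (−0.50 ± 0.10), while Ppara (0.82 ± 0.18) and Cebpa (0.42 ± 0.10) were higher. On the diet 2 regulators rose, Dbp (3.93 ± 0.42, adjusted p = 0.014) and Maff, a small Maf partner of NRF2 (1.41 ± 0.20, adjusted p = 0.0159), and Dbp was also called within D2 (4.34 ± 0.61, adjusted p = 0.0352). The NRF2 gene itself, Nfe2l2, was not called in any of these tests. Dbp, a PAR bZIP factor of the circadian clock output, was at 5.55 and 5.95 in the week 0 arrays of B6 and D2. In the fed arrays it lay between 7.82 and 10.52. Between the strains it differed by 1.05 ± 0.28 (SE, limma adjusted p = 0.0603), which did not pass. At week 1 it was at 7.82 in B6 and at 10.23 in D2. Time of day at collection is in none of the fits, and its part in changes from week 0 and in strain differences was not tested.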

How the data were processed

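The authors deposited 1 linear signal intensity per probe set and array, made with GCOS per the submitters' processing notes. Its version, scaling target and centring are not given in the sources used here. Array medians ranged from 10.5 to 16.1 and 2% trimmed means from 55.8 to 88.6, a ratio of 1.59, so the arrays were quantile normalised as log2(signal + 1.05), 1.05 being the 10th percentile of all values. This sets all arrays to 1 distribution and can hide a common shift. Of 45101 probe sets, 64 controls were left out, 34945 carried 1 symbol, 932 several and 9160 none, and symbols were updated through gene identifiers. Genes were tested where their mean was above 3.73, the 50th percentile over the probe sets. Fits used limma 3.58.1 in R 4.3.3 (lmFit, eBayes with trend). Strain was fitted with week as a block, since the labels tie the numbers to shared weeks, and weeks serve as replicates. Its p-values measure the spread of the strain difference over the weeks, with the effect of week that both strains share taken out. Diet was fitted with strain as a term, and there the spread between pools includes time on the diet. The responses used 4 group means, where the lone week 0 arrays are assumed to vary like the fed ones. Slopes were on log2(week). The fits were run on simulated data with independent noise in each array, which cannot judge the use of weeks as replicates. Alternatives were other pseudocounts, scalings, filters, probe set rules, variance models and designs, and each array left out. All 10 members were named. The other genes named passed a test in 1 of 6 gene lists, were up to 4 others of a list, or were the likest 3 of a member. Members, lists and rules were chosen with earlier results of these data known. No protein table was used here. RefSeq promoter sequences and Biopython 1.88 served for sequences, Python 3.11.15 with matplotlib 3.10.9 for figures.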

Additional observations from a re-analysis of the deposited data

Results flagged for a closer look

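Gstt2 in B6 at week 4 was at 9.28, apart from the other fed B6 arrays, which lay between 9.98 and 10.12. Its gap to the nearest was 0.83 of the range of the 4 arrays, just above the critical value for 4 samples. Of 20 such groups (10 genes in fed B6 and fed D2), this was the only 1, and about 1 in 20 is flagged by chance. The macrophage markers had their highest sum in the same array, 16800, and their part in the Gstt2 value was not tested. No gene of the 10 moved in opposite directions in all fed arrays of the strains.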

How the results depend on the processing

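Gsta2 stayed lower in D2 in all 13 alternatives (−2.22 to −1.70) and with each array left out (−2.22 to −1.62), called in 12 and in 6 of 10. Gstm3 was called in 6 of 13 and 2 of 10, Gstm1 in 3 and 0. Members called between strains were 1, Gsta2, with values under 20 set to 20, with no filter, with the mean of probe sets, with eBayes without trend and with no replicate block. They were 0 without both week 12 arrays (chosen after seeing the data, as was testing all probe sets) and 0 to 2 with 1 array left out. Members called on the diet were 5 at the deposited scale, also 5 in B6 (with 45.1% and 17.6% of all genes), 1 without week 12, and 0 to 1 with 1 array left out. The strain difference of Gstm4 turned to −0.01 (pseudocount 16), −0.07 (deposited scale), −0.17 (fed weeks) and −0.06 (no week 12). Median centring turned Gstt1 in B6 to −0.04, and the difference in response to 0.14 for Gsta3 and 0.08 for Gstm1. At the deposited scale, diet changes turned to 0.11 (Gsta3), 0.14 (Gstm2), 0.26 (Gstt1) and 0.15 (Gstk1), in B6 to 0.16 (Gsta3) and 0.14 (Gstk1), and in D2 to 0.07 (Gsta3), 0.09 (Gstt1) and 0.15 (Gstk1). That scale moves the median of all genes by 0.52, 0.58 and 0.43 in these tests.

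With 1 array left out, signs changed for strain in Gsta3 (−0.17 to 0.05) and Gstm4 (−0.17 to 0.22). For diet they changed in Gsta2 (−0.62 to 1.21), Gstm2 (−0.96 to 0.25) and Gstt1 (−0.19 to 0.02), and in B6 in Gstm2 (−0.28 to 0.76) and Gstt1 (−0.04 to 0.10). For the difference in response they changed in Gsta3 (−0.12 to 0.13), Gstm1 (−0.27 to 0.03) and Gstt2 (−0.04 to 0.24). Without a week 0 array, that strain's change could not be fitted, and the diet change over both strains rested on the other strain alone. The ends of the diet ranges of Gsta2, Gstm2 and Gstt1 over both strains equal their changes within D2 and within B6. Among all genes, calls between strains were 883, but 426 without week 12, 1402 over all probe sets and 386 to 716 with 1 array left out. On the diet 70 became 117 (floor of 20), 313 (median centring), 4990 (deposited scale), 109 (all probe sets) and 14 to 94. In B6 13 became 0 to 1946, in D2 2 to 127, and for the difference 1 became 0 to 26. Causes of the other shifts were not tested. Few pools limit precision.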
